A study of Caenorhabditis elegans with 6 samples.

Results

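The nlp genes of the nematode Caenorhabditis elegans, which are named for neuropeptide-like proteins, were described in whole worms given D-mannose and in whole worms given water. The set holds every gene with a value in the deposited tables whose name starts with nlp-, except 7 (nlp-27, nlp-28, nlp-29, nlp-30, nlp-31, nlp-33 and nlp-34) of a group best known for antimicrobial peptides of the epidermis. This gave 68 of the 45729 genes with a value, chosen by name and not by level. The mannose group and the water group each hold 3 libraries of RNA from whole worms of the N2 strain, the standard laboratory wild type, at an age of 6 days. All worms of both groups grew on plates seeded with the OP50 strain of Escherichia coli. By the labels the groups thus share strain, food and age and differ in the sugar. TruSeq and VAHTS library kits are both named without being assigned to libraries, so whether the kit differs between the groups is not known. The sources used here do not give the dose of mannose, the time worms spent on it or the number of worms in a library.

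Neuropeptides are short signalling molecules that neurons and some other cells cut out of larger precursor proteins. In C. elegans the precursors are divided by name into FMRFamide-like (flp), insulin-like (ins) and neuropeptide-like (nlp) genes, and the nlp name takes in many unrelated peptide families. The convertase EGL-3 cuts a precursor at pairs of basic residues, the carboxypeptidase EGL-21 trims the ends, amidating enzymes finish many of the peptides, and dense-core vesicles release them to act mostly on G protein-coupled receptors. Members of the set are known from work on egg laying, feeding, sleep-like states, olfaction and the defecation rhythm.

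Each library held between 39892258 and 46041030 read equivalents, and 17819 to 18509 genes had a value above 0 in each. Values are FPKM, fragments per kilobase of gene length and per unit of library size, so levels of different genes can be set side by side. All 12 markers of neurons were above 0 in every library, with summed levels of 130.1 to 201.8 FPKM in mannose and 120.7 to 237.5 FPKM in water. Most of each sum came from snb-1, at 81.9 to 156 FPKM in mannose and 76.6 to 189.8 FPKM in water. Markers of intestine and body wall muscle were above 0 in every library too, while sta-2 and bus-8 of the epidermis, spe-9 of sperm and ceh-22 of the pharynx were at 0 in some library. The 10 germline and oocyte markers varied most from library to library, with sums of 4512, 2103 and 1036 FPKM in mannose 1, 2 and 3 and of 1168, 1527 and 5046 FPKM in water 1, 2 and 3. Mannose 1 and water 3 therefore stood apart from the other 4 libraries across the groups. The members' median, their split by direction, their counts by unadjusted p and some single genes are given below with and without them. Sums, counts of genes without overlap and the other gene lists are given with all 6 libraries only.

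Most nlp genes were expressed at a few FPKM, and 4 of them held most of the family's RNA. Of the 68 genes, 61 were above 0 in every library and 39 were at 1 FPKM or more in every library. The mean over the 6 libraries was at least 100 FPKM for 4 genes, between 10 and 100 FPKM for 5, between 1 and 10 FPKM for 39 and below 1 FPKM but above 0 for 17. The other 3, nlp-22, nlp-32 and nlp-39, were listed at 0 throughout. The median mean level was 2.38 FPKM over the 68 genes, against 5.09 FPKM over the 31 flp genes and 0.455 FPKM over the 38 ins genes. Together nlp-77, nlp-24, nlp-40 and nlp-36 made up 84.4% to 86.2% of the summed FPKM of the family in each library.

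**Figure D1:**
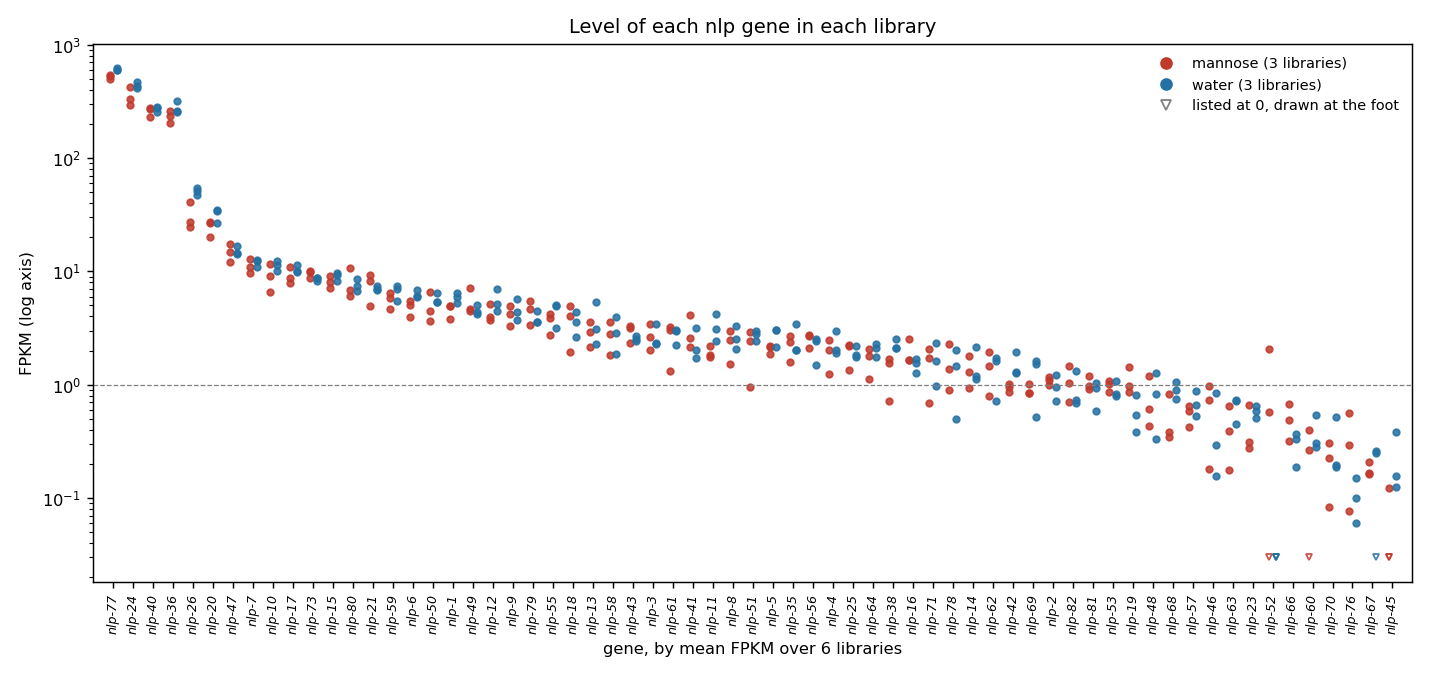
Level of each nlp gene above 0 in each library, in FPKM on a log axis, with genes ordered by their mean over the 6 libraries; red points are mannose, blue points are water, open triangles are libraries listed at 0 and the dashed line marks 1 FPKM. The 4 genes on the left lie above 200 FPKM in every library, and the next gene, nlp-26, lies at 24.7 to 54.5 FPKM.

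The most abundant member was nlp-77 (C06A8.3, chromosome II, 7790560 to 7792875 on WBcel235), with 534, 499.7 and 540.1 FPKM in mannose and 603, 618 and 599.6 FPKM in water. Every water library was above every mannose library. The current gene tables call this gene srlf-1. The deposited annotation gives its protein a domain of unknown function, with an antigen of the parasitic worm Onchocerca volvulus as best match in Swiss-Prot. The best match in the NR protein database is named a neuropeptide-like protein of C. elegans. On average over the 6 libraries nlp-77 made up 32.7% of the family's summed FPKM, under a name that the current tables no longer keep among the nlp genes. A further 3 members have also been renamed there: nlp-38 is mihp-1, nlp-42 is mihp-2 and nlp-73 is ctdh-1 in RefSeq.

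The opioid-like gene nlp-24 (V, 11616376 to 11616828), whose peptides act through the receptor NPR-17 to keep the pharynx pumping in starved worms, had 296, 334 and 419.6 FPKM in mannose and 472, 413 and 436 FPKM in water. Mannose 3 lay among the water libraries, so the groups overlapped. The gene nlp-40 (I, 11495 to 16837) encodes a peptide that the intestine releases onto the receptor AEX-2 of neurons to set off the expulsion step of defecation. It had 231, 272 and 278 FPKM in mannose and 285, 275 and 257 FPKM in water, with the groups interleaved. The gene nlp-36 (III, 9488731 to 9489224) had 204, 233 and 259 FPKM in mannose and 320.3, 261 and 253.5 FPKM in water, again overlapping. It overlaps the oppositely oriented gene dars-1, which had a mean of 267 FPKM. The shared stretch is 11 exonic bases, 3.1% of the exonic length of nlp-36, and the sources used here do not say whether the counting used strand.

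Below these 4 genes the levels dropped several-fold. The lowest library of nlp-36, at 204 FPKM, was far above the highest library of nlp-26, at 54.5 FPKM. Neighbours in the order of mean level mostly could not be told apart: among the 64 neighbouring pairs of members above 0, the ranges over the 6 libraries overlapped in 60. The exceptions were nlp-77 over nlp-24, nlp-24 over nlp-40, nlp-36 over nlp-26, and nlp-20 over nlp-47. The gene nlp-20 had 19.97, 27.4 and 26.9 FPKM in mannose and 26.6, 34.2 and 34.5 FPKM in water. The gene nlp-47, whose peptide resembles gonadotropin-releasing and adipokinetic hormones and binds GNRR-1, had 12.04, 14.7 and 17.6 FPKM in mannose and 16.9, 14.5 and 14.2 FPKM in water. Levels of the next genes, nlp-7, nlp-10, nlp-17, nlp-73 and nlp-15, all lay between 6.55 and 12.9 FPKM.

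The precursors were short, and a larger share of their genes lies on the X chromosome than of protein-coding genes in general. In the Ensembl 115 annotation of WBcel235 all 68 genes are protein coding. Their precursors run from 64 residues for nlp-51 to 326 for nlp-16, with a median of 93, against a median of 329 over all 19985 protein-coding genes. At most 150 residues were found for 61 members (89.7%), against 17.5% of all protein-coding genes. The X chromosome holds 18 members (26.5%), against 13.7% of protein-coding genes. A cluster of 4 members, nlp-45, nlp-22, nlp-23 and nlp-2, lies between 2337600 and 2344766 on the minus strand of X, and all 4 were low: nlp-22 was listed at 0, nlp-45 and nlp-23 stayed below 1 FPKM in every library, and nlp-2 had 0.716 to 1.22 FPKM. On chromosome V nlp-25 and nlp-26 lie 5042 bases apart on the same strand. The gene nlp-25 had 1.34 to 2.22 FPKM and nlp-26 had 24.7 to 54.5 FPKM.

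Setting mannose against water addresses which transcripts respond to the sugar. No nlp gene passed the test. Over the tested members, 35 of 50 were lower in mannose and 15 were higher, and the log2 differences ran from −0.73 for nlp-26 to 0.26 for nlp-41 with a median of −0.12. With a pseudocount of 0.1 and with limma-voom on read equivalents the lowest value was that of nlp-38, and nlp-16, nlp-78 or nlp-79 had the highest value under some of the settings that left out libraries. Over all 11237 tested genes 45.5% were lower in mannose and the median was 0.015. Without both mannose 1 and water 3 the members split into 25 higher and 25 lower (50%) with a median of 0.001, against 42.9% lower and a median of 0.02 over all tested genes. Without mannose 1 alone 27 of 50 were lower (54%) with a median of −0.04, against 51.1% and −0.01 over all tested genes. Without water 3 alone 31 of 50 were lower (62.0%) with a median of −0.13, against 44.9% and 0.04. With the libraries scaled to their upper quartile 39 of 50 members (78.0%) and 57.5% of all tested genes were lower in mannose. The 10 tested members on the X chromosome had a median of −0.09 and the 40 on other chromosomes one of −0.15. In RNA from whole worms, fewer cells of a type and less RNA per cell cannot be told apart.

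Of all 11237 tested genes 0.0% were called at a limma adjusted p of 0.05, and 0 of the 50 tested members were; the adjusted p of every tested member was 0.9999. Tested genes had at least 1 FPKM in at least 3 of the 6 libraries, and adding 1 FPKM before taking log2 makes differences of low genes look smaller than they are. At an unadjusted p under 0.05 were 4 members (8.0%), nlp-26, nlp-11, nlp-38 and nlp-42, against 4.73% of all tested genes. With single libraries left out their number was 1 to 4, lowest without mannose 1 (2.0%, against 3.92% of all tested genes). It was 2 (4.0%) without mannose 2, against 2.33% of all tested genes, and 2 without water 2, against 3.12%. Without both mannose 1 and water 3 it was 4 (8.0%, against 6.35%), of which nlp-26 and nlp-42 are among those named. The groups did not overlap for 7 members lower in mannose, which are nlp-77, nlp-26, nlp-6, nlp-1, nlp-11, nlp-38 and nlp-42. Of all tested genes 5.31% were lower in mannose without overlap. In the other direction 0 of the 50 members were free of overlap, against 5.42% of all tested genes. For 49 of the 50 members the 95% interval of the difference lay within a 2-fold change in either direction (log2 of 1), the exception being nlp-26. That count shrank to 36 with a pseudocount of 0.1 and to 35 with limma-voom on read equivalents.

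**Figure D2:**
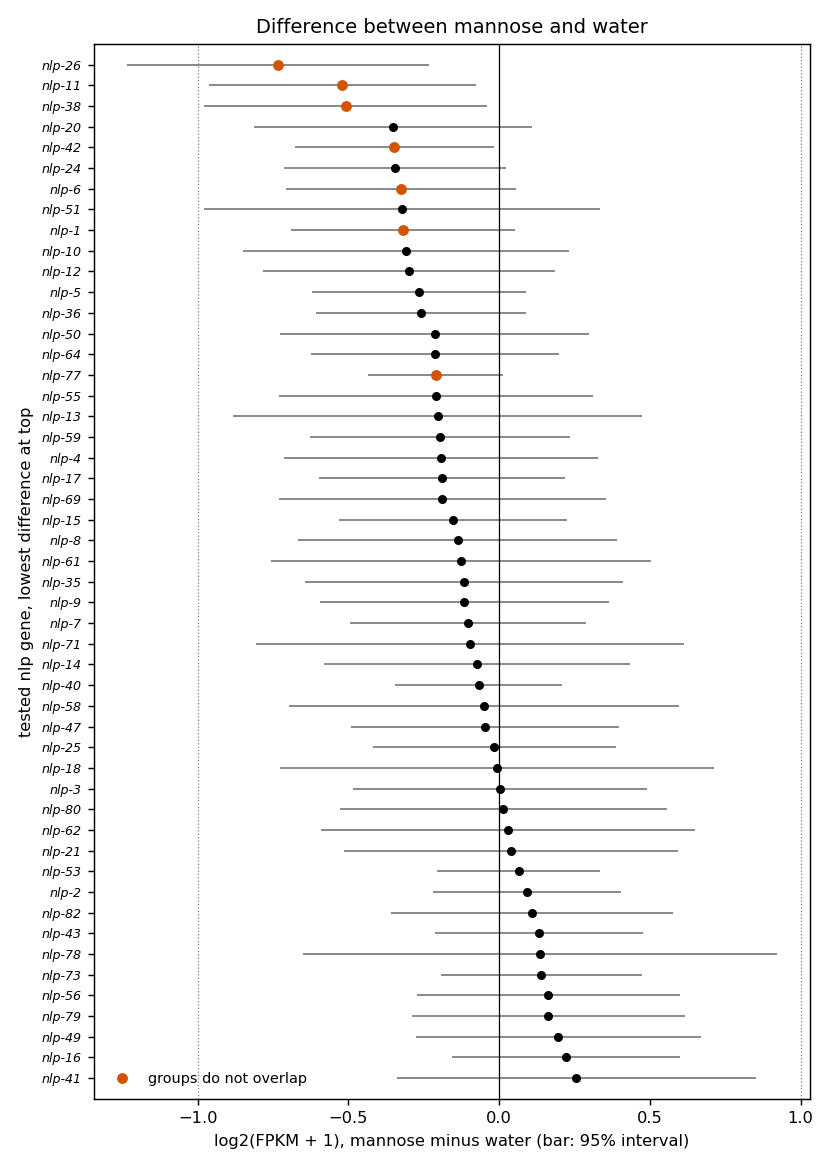
Difference between mannose and water for each of the 50 tested nlp genes, as log2(FPKM + 1) in mannose minus water, with 95% intervals; dotted lines mark a 2-fold change and orange points mark genes whose 3 mannose and 3 water libraries do not overlap. All 7 orange points lie below 0, from −0.21 for nlp-77 to −0.73 for nlp-26.

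The largest difference on the log2(FPKM + 1) scale was that of nlp-26 (V, 19613461 to 19614534), a gene for glycine-rich peptides. It had 24.7, 27.3 and 40.6 FPKM in mannose and 54.5, 47.3 and 50.9 FPKM in water. All mannose libraries were below all water libraries, with mannose 3 the closest to water. The means were 30.9 ± 8.50 FPKM in mannose and 50.9 ± 3.58 FPKM in water (SD, n = 3 each), a log2 difference of −0.73 (standard error, SE, 0.21) with a limma unadjusted p of 0.011. Its 95% interval ran from −1.24 to −0.23. Leaving out single libraries gave differences from −0.94 to −0.59. With a pseudocount of 0.1 it was −0.75 and with limma-voom on read equivalents −0.75, where nlp-38 was lower at −0.80 and −0.83.

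The gene nlp-11 (II, 9689661 to 9692020) had 1.85, 1.76 and 2.19 FPKM in mannose and 3.12, 2.43 and 4.23 FPKM in water. The mannose libraries lay close together and all below the more scattered water libraries. The log2 difference was −0.52 (SE 0.18, limma unadjusted p = 0.028), and −0.34 without both mannose 1 and water 3. The myoinhibitory-peptide-like gene nlp-38 (I, 13402448 to 13404106), whose peptides act on SPRR-2, had 0.720, 1.68 and 1.55 FPKM in mannose and 2.52, 2.11 and 2.09 FPKM in water. Mannose 1 was the lowest by a wide margin, and the other mannose libraries were also below water. Its log2 difference was −0.51 (SE 0.20, limma unadjusted p = 0.038). It was −0.31 without mannose 1, −0.34 without both mannose 1 and water 3, −0.80 with a pseudocount of 0.1 and −0.83 with limma-voom. The related gene nlp-42 (V, 18903772 to 18906252) had 1.01, 0.867 and 0.960 FPKM in mannose and 1.26, 1.93 and 1.29 FPKM in water. All 3 water libraries but only mannose 1 of the mannose libraries reached 1 FPKM, so it entered the test because it was higher in water. Its log2 difference was −0.35 (SE 0.14, limma unadjusted p = 0.043). It was −0.23 without water 2, −0.58 with a pseudocount of 0.1 and −0.61 with limma-voom. Of the other tested members 0 passed the filter in this way through either group.

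Among the 4 abundant genes the differences ran from −0.35 for nlp-24 to −0.07 for nlp-40, and every 95% interval lay within a 2-fold change. The levels of nlp-77 averaged 525 ± 21.8 FPKM in mannose and 607 ± 9.89 FPKM in water (SD, n = 3 each), a log2 difference of −0.21 with a 95% interval of −0.44 to 0.01. For nlp-24 the means were 349.7 ± 63.5 FPKM in mannose and 440.5 ± 29.5 FPKM in water, a log2 difference of −0.35 with an interval of −0.72 to 0.02. For nlp-36 the means were 232 ± 27.5 FPKM in mannose and 278 ± 36.6 FPKM in water, a log2 difference of −0.26 with an interval of −0.61 to 0.09. The intestinal peptide gene nlp-40 came out nearly level, at 260.5 ± 25.5 FPKM in mannose and 272 ± 13.9 FPKM in water. Its log2 difference was −0.07 with an interval of −0.35 to 0.21, and it turned to 0.02 without mannose 1.

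Summed over all 68 genes, the family reached 1467, 1566 and 1774 FPKM in mannose, against 1959, 1835 and 1828 FPKM in water, a log2 ratio of the group means of −0.23. The 3 mannose sums were all below the 3 water sums. Without nlp-77 the sums were 933, 1066 and 1234 FPKM in mannose, against 1356, 1217 and 1229 FPKM in water, which put mannose 3 above water 2 and water 3. Without the 4 abundant genes they were 202, 227 and 277.5 FPKM in mannose, against 279, 267 and 281.5 FPKM in water, with mannose 3 lying among the water libraries. The family's share of all read equivalents was 0.0747%, 0.0926% and 0.112% in mannose, against 0.120%, 0.111% and 0.0854% in water. By this measure, which does not use the library sizes behind the FPKM, the groups overlapped.

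Members tied to egg laying, olfaction, sleep and movement were mostly within the spread between libraries. The olfactory gene nlp-1 (X, 3727553 to 3728446), which the AWC neurons use to signal through NPR-11, had 3.82, 4.92 and 4.90 FPKM in mannose and 6.00, 6.43 and 5.28 FPKM in water. The groups did not overlap, and the log2 difference was −0.32 (SE 0.15, limma unadjusted p = 0.080). The gene nlp-3, which the HSN neurons use to promote egg laying, averaged 2.70 ± 0.698 FPKM in mannose and 2.69 ± 0.672 FPKM in water (SD, n = 3 each). Its difference of 0.00 changed sign with the scaling of the libraries. The gene nlp-7, which inhibits egg laying, had 9.73, 10.96 and 12.9 FPKM in mannose and 12.7, 12.5 and 10.98 FPKM in water, a log2 difference of −0.10 (SE 0.16).

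The cholecystokinin-like gene nlp-12 (I, 1843265 to 1843959), expressed by the stretch-sensitive neuron DVA, had 5.18, 3.99 and 3.69 FPKM in mannose and 4.48, 5.11 and 7.04 FPKM in water. Water 3 was the highest and the groups overlapped, with a log2 difference of −0.30 (SE 0.20) that came to −0.14 without water 3. The sleep-related gene nlp-8 averaged 2.33 ± 0.748 FPKM in mannose and 2.63 ± 0.618 FPKM in water. The orcokinin-like gene nlp-14, also tied to sleep, averaged 1.35 ± 0.434 FPKM in mannose and 1.49 ± 0.560 FPKM in water (SD, n = 3 each). Differences of nlp-8 (−0.14) and nlp-14 (−0.07) were smaller than their standard errors of 0.22 and 0.21, and both turned positive without mannose 1. The related orcokinin-like gene nlp-15 had 8.03, 7.06 and 9.11 FPKM in mannose and 9.72, 9.30 and 8.17 FPKM in water, a log2 difference of −0.15 (SE 0.16). The gene nlp-22, which acts from the RIA neurons to quiet worms before a moult, was listed at 0 in all 6 libraries.

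The remaining named members with negative differences were nlp-20 (−0.35), nlp-10 (−0.31), nlp-17 (−0.19), nlp-9 (−0.12) and nlp-47 (−0.05), all with overlapping groups. Leaving out mannose 1 brought nlp-20 to −0.21, and leaving out mannose 2 brought nlp-10 to −0.12. Of these, nlp-9 and nlp-47 lie so close to 0 that their sign depended on which library was left out, and nlp-17 shares 30 exonic bases (6.9%) with the oppositely oriented gene seld-1. The gene nlp-10, of the GGxY family in the deposited annotation, had 9.10, 6.55 and 11.6 FPKM in mannose and 11.5, 12.4 and 9.999 FPKM in water. The gene nlp-6, lower in mannose without overlap, had 3.95, 5.03 and 5.52 FPKM in mannose and 6.79, 5.94 and 6.07 FPKM in water.

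The largest positive differences were small, and with all 6 libraries no tested member reached an unadjusted p of 0.05 in that direction. Without both mannose 1 and water 3, nlp-79 reached 0.40 (limma unadjusted p = 0.046), against 0.16 with all libraries. The gene nlp-41 had 2.15, 2.59 and 4.10 FPKM in mannose and 2.01, 3.15 and 1.70 FPKM in water, a log2 difference of 0.26 (SE 0.25). Its mannose 3 library was the highest and the rest were mixed. It shares 8 exonic bases (2.1%) with the oppositely oriented gene mog-4, which had a mean of 14.2 FPKM. The gene nlp-16 had 1.65, 1.66 and 2.51 FPKM in mannose and 1.57, 1.68 and 1.27 FPKM in water, a log2 difference of 0.22 (SE 0.16). Arousal peptide gene nlp-49 (X, 5904653 to 5905347), whose product acts on SEB-3, had 4.68, 4.505 and 7.20 FPKM in mannose and 4.23, 4.37 and 5.08 FPKM in water. Mannose 3 again stood above the rest, and the log2 difference was 0.20 (SE 0.20). The genes nlp-79 and nlp-56 both came to 0.16, with standard errors of 0.19 and 0.18. The gene nlp-73 had 8.74, 9.83 and 10.1 FPKM in mannose and 8.77, 8.14 and 8.82 FPKM in water, a log2 difference of 0.14 (SE 0.14). Most of these values were much smaller without mannose 3, at 0.06 for nlp-41, 0.09 for nlp-16, 0.01 for nlp-49 and 0.04 for nlp-79. For nlp-56 the difference was 0.00 without water 2.

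The filter left 18 members untested, 15 of them above 0, with mean levels of 0.132 to 0.942 FPKM. Of the 15, 7 had a higher mean in mannose and 8 a lower one. The gene nlp-19 had 1.45, 0.859 and 0.967 FPKM in mannose and 0.543, 0.385 and 0.804 FPKM in water, without overlap. The gene nlp-45 had 0, 0 and 0.123 FPKM in mannose and 0.126, 0.386 and 0.158 FPKM in water, also without overlap, on a mean of 3.83 read equivalents per library. The gene nlp-52 was listed at 0 in mannose 1 and in all 3 water libraries but had 2.05 FPKM in mannose 2 and 0.577 FPKM in mannose 3. These 3 genes were picked for mention after their values were seen. The gene nlp-76 shares 67 exonic bases (9.8%) with nhr-17 on the same strand, so reads may be divided between them. The spans of nlp-23, nlp-70 and nlp-82 overlap those of nlp-2, npr-5 and aqp-2 on the same strand, with 0 exonic bases shared in the Ensembl annotation. The deposited gene models can differ from it, and start and end were the same for 36 of the 68 members. The listed length of nlp-70 is 1595 bases, against 414 exonic bases in Ensembl. Its deposited annotation describes a neuropeptide receptor, so its values may hold reads of npr-5.

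Whole libraries were low or high for the family. Mannose 1 was the lowest of the 6 libraries for 24 of the 50 tested members (48.0%) and mannose 2 for 14 (28%), against 18.8% and 12.1% of all tested genes. Mannose 3 was the lowest for 1 member (2.0%, against 20.2% of all tested genes) and shared with water 1 the largest number of highest values, 15 each. The median deviation of the tested members from their 6-library mean, on the log2(FPKM + 1) scale, was −0.22 in mannose 1, −0.05 in mannose 2 and 0.12 in mannose 3, against 0.09 in water 1, 0.03 in water 2 and 0.07 in water 3. Mannose 3 was above every water library by this measure, and mannose 1 was below every other library.

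The flp genes, like the members, were lowest in mannose 1 and highest in mannose 3, and the ins genes were lowest in mannose 2. The 28 tested flp genes deviated by −0.21, −0.09 and 0.16 in the mannose libraries and by 0.14, −0.06 and 0.10 in the water libraries, with 21 of 28 lower in mannose and a median difference of −0.06. The 12 tested ins genes deviated by 0.05, −0.18 and 0.09 in the mannose libraries and by 0.06, 0.03 and 0.07 in the water libraries, with 8 of 12 lower in mannose and a median difference of −0.11. The 5 tested nlp genes of the group left out were all lower in mannose, with a median of −0.11. They deviated by −0.21, −0.12 and 0.17 in the mannose libraries and by 0.18, 0.01 and 0.04 in the water libraries. Muscle markers moved with the members: they deviated by −0.42, −0.18 and 0.17 in the mannose libraries and by 0.09, 0.10 and 0.12 in the water libraries, and 6 of 7 tested were lower in mannose. All 8 muscle markers were above 0 in every library, with sums of 1228 to 1740 FPKM in mannose and 1646 to 1706 FPKM in water. Germline and oocyte markers ran the opposite way in mannose, at 1.08, 0.09 and −0.75, and stood at −0.85, −0.53 and 0.93 in water. Epidermal markers deviated by −0.13, −0.23 and 0.09 in the mannose libraries and by 0.11, 0.07 and 0.13 in the water libraries. Of the 5 tested, 4 were lower in mannose and 1 was higher. The sums of the epidermal markers were 2123 to 2511 FPKM in mannose and 2762 to 3297 FPKM in water. Nearly all of each sum came from col-19, at 2081 to 2461 FPKM in mannose and 2713 to 3234 FPKM in water. All 6 tested sperm markers were lower in mannose, with sums over 8 markers of 126.5 to 236.2 FPKM in mannose and 212.8 to 338.2 FPKM in water. Of 7 intestine markers 3 were higher and 4 lower in mannose, with sums of 1729 to 2627 FPKM in mannose and 2178 to 2504 FPKM in water. Their median deviation ran from −0.12 in water 2 to 0.18 in water 3. The 6 pharynx markers summed to 41.1 to 54.6 FPKM in mannose and 49.4 to 50.3 FPKM in water. The 2 tested deviated by −0.21, −0.22 and 0.19 in the mannose libraries and by 0.14, 0.02 and 0.07 in the water libraries. The median deviation of the tested neuron markers lay between −0.12 and 0.13 in all 6 libraries, but single markers went different ways. The synaptic vesicle gene snb-1 had 156, 113 and 81.9 FPKM in mannose and 76.6, 94.8 and 189.8 FPKM in water, highest in mannose 1 and water 3 as the germline and oocyte markers were. The part of these marker differences in the members' values was not tested, and leaving out both mannose 1 and water 3 brought the members' median to 0.001.

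**Figure D3:**
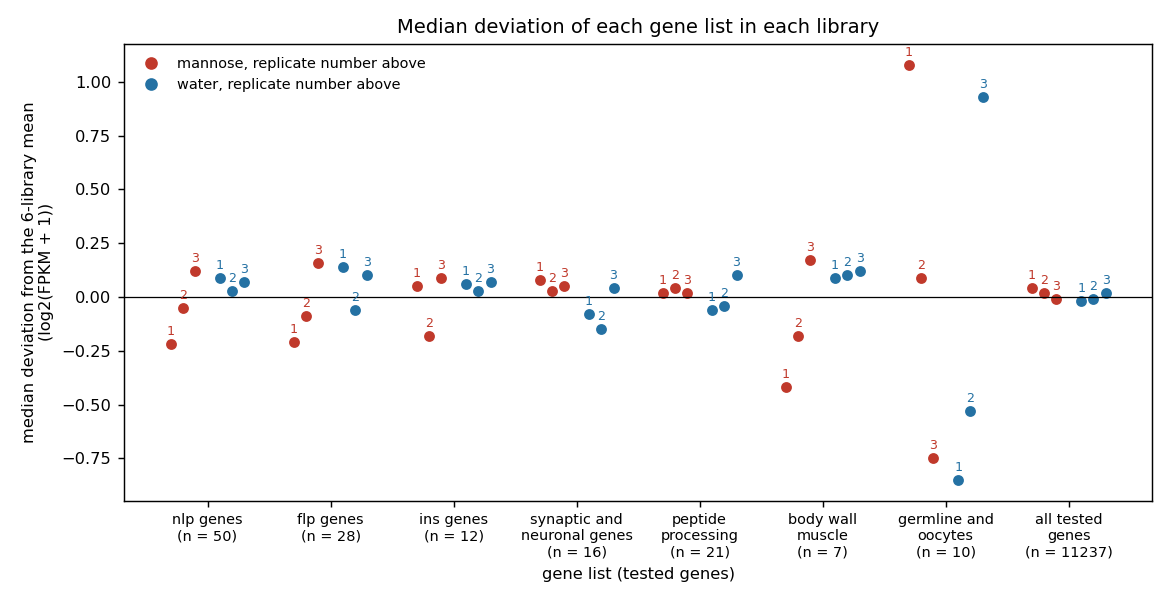
Median deviation of each gene list from its own 6-library mean in each library, on the log2(FPKM + 1) scale; red points are mannose, blue points are water, and the number at a point is its replicate number. The nlp and flp genes and the muscle markers are lowest in mannose 1 and highest in mannose 3, and the germline and oocyte markers reach 1.08 in mannose 1 and 0.93 in water 3.

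The genes that make and release neuropeptides showed no lean towards lower values in mannose. Of 23 genes on the list of peptide processing and release 21 were tested. In mannose 13 were higher and 8 lower, and the median log2 difference was 0.06. None was called, and 1 had an unadjusted p under 0.05: cpd-1, a carboxypeptidase D-like gene, averaged 3.94 ± 0.205 FPKM in mannose and 2.79 ± 0.477 FPKM in water (SD, n = 3 each; limma unadjusted p = 0.031). The next 3 by p were pkc-1 (0.36), which overlaps kup-1 on its strand, the amidation gene pamn-1 (0.26) and the vesicle gene cccp-1 (0.24). The convertase gene egl-3 had 4.505, 3.22 and 2.98 FPKM in mannose and 3.18, 3.35 and 5.94 FPKM in water. The carboxypeptidase gene egl-21 had 15.1, 16.1 and 16.5 FPKM in mannose and 14.98, 17.4 and 20.2 FPKM in water. Both overlapped between the groups.

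Receptors were mostly too low to test. Of 17 receptor genes for nlp or related peptides 5 passed the filter, and 4 of these had a higher mean in mannose. Among the 4 is gnrr-1, whose values are described below. Over all tested genes 45.5% were lower in mannose. The myoinhibitory peptide receptor gene sprr-2 averaged 2.92 ± 0.130 FPKM in mannose and 3.22 ± 0.326 FPKM in water. It overlaps tatn-1 on its strand, so its values may hold reads of that gene. The receptor of the peptide of nlp-40, aex-2, averaged 0.7503 ± 0.141 FPKM in mannose and 1.11 ± 0.233 FPKM in water (SD, n = 3 each) and was below the filter, as were npr-17, npr-11, seb-3, ckr-1 and ckr-2. Values of gnrr-1, the receptor of the peptide of nlp-47, were 0.0380, 171 and 191 FPKM in mannose and 0.169, 37.01 and 0.0874 FPKM in water. That gene overlaps the ribosomal protein genes rpl-41.1 and rpl-41.2 on its strand, so its values may hold their reads.

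Of 30 synaptic and neuronal genes 16 were tested. In mannose 11 were higher and 5 lower, and the median log2 difference was 0.07. The active zone gene syd-2 averaged 2.88 ± 0.334 FPKM in mannose and 2.00 ± 0.293 FPKM in water (SD, n = 3 each; limma unadjusted p = 0.031), and none was called. The next 3 by p were cpx-1 (−0.23), tom-1 (0.17) and unc-119 (0.20). With all 6 libraries the lists of processing and of synaptic genes had medians of the opposite sign to that of the members. The median over all tested genes was 0.015, on the same side of 0 as these lists. Without both mannose 1 and water 3 the members' median was 0.001, and the medians of these lists are not given for that setting. The difference between the lists was not tested.

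Read depth differed widely among the members. The tested members were covered by 13.7 to 16750 read equivalents per library, with a median of 95.8. Their coefficient of variation within groups had a median of 21.9%, against 10.3% expected from counting error alone, and for 7 of them it was below 1.5 times the counting error. For nlp-77 the spread was 3.0% against a counting error of 0.8%, and for nlp-40 it was 7.7% against 1.1%, so counting is a small part of their spread. For nlp-73 both were 6.4%. The median standard error of a member's log2 difference was 0.19, against 0.18 over all tested genes, and the median half-width of its 95% interval was 0.47. Reads copied by amplification are not independent molecules, so the counting errors cover counting alone.

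**Figure D4:**
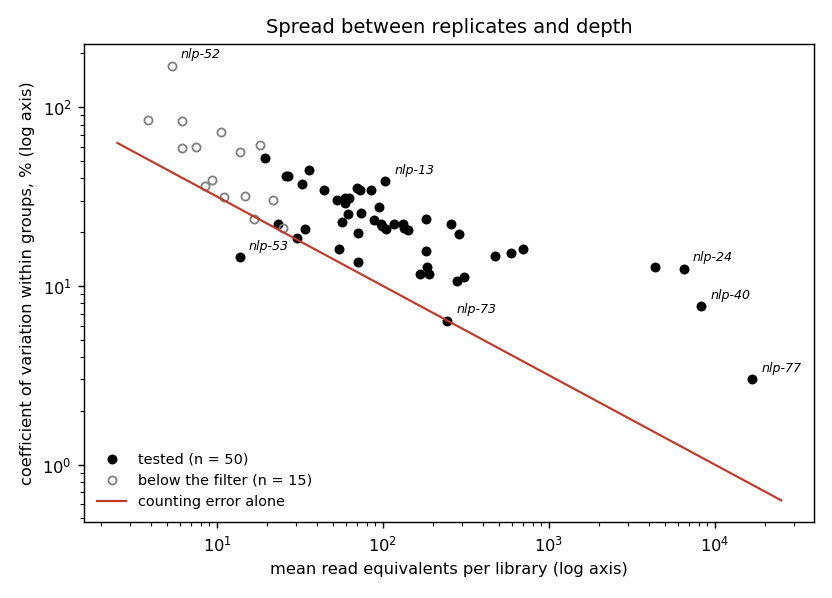
Coefficient of variation within groups, in percent, against mean read equivalents per library for each nlp gene above 0, both on log axes; filled points were tested, open points were below the filter and the line is counting error alone. The gene nlp-77 lies at 3.0% with 16750 read equivalents, and nlp-73 lies on the line at 6.4%.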

How the data were processed

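Whole-worm RNA was sequenced in 6 libraries, 3 of the mannose group and 3 of the water group, assigned from the labels. TruSeq and VAHTS kits are both named in the labels' protocols, which do not assign them to libraries. By the submitters' processing notes, cutadapt, FastQC and HISAT2 2.1.0 were used with WBcel235; no source used here names the counting tool or its strand setting. The authors deposited FPKM, 1 value per gene and library. Multiplied by gene length, 95.0% to 95.8% of values worth up to 20 reads came out as whole reads at 1 fixed step in each library (tolerance 0.05 reads). All values were turned into read equivalents with that step.

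Positions are those of the deposited tables; gene models, precursor lengths and overlaps came from Ensembl 115, and current names also from RefSeq. Genes with at least 1 FPKM in at least 3 of 6 libraries were tested on log2(FPKM + 1) by limma 3.58.1 in R 4.3.3 with its trend and robust options, two-sided, with Benjamini-Hochberg adjustment over all 11237 tested genes and a threshold of 0.05. The code of the fit was run on simulated data with independent noise of equal size for every gene. That simulation held no differences between whole libraries, so it does not show how the fit behaves with them. Nothing in the labels says that the libraries came from separate cultures, so p-values measure only the spread between these samples, which may be technical.

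Members and lists were chosen with earlier results of these data known. Named members were the 12 most abundant, those with the smallest unadjusted p under 0.05 (up to 10), the 5 with the largest difference in each direction, and 15 with a known role, 2 of which (nlp-37 and nlp-44) matched no gene; other lists gave up to 4 genes with the smallest p. A few others were named after their values were seen. The marker opt-2 matched no gene. Precursor sequences were not used here. Alternatives were a pseudocount of 0.1, no filter, a filter of 20 read equivalents, upper-quartile scaling and limma-voom weights on read equivalents. For limma-voom the library sizes were those inferred from the fixed step in each library. Other alternatives were a replicate block, no genes overlapping another on their strand, and libraries left out.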

Additional observations from a re-analysis of the deposited data

How the results depend on the processing

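No alternative called an nlp gene at a limma adjusted p of 0.05. Of all tested genes 0 were called as well, except 3 without both mannose 1 and water 3 and between 0 and 2 when single libraries were left out. The members' median was 0.001 without both libraries, with 25 members higher in mannose. Leaving out single libraries gave medians from −0.215 to −0.04, with 10 to 23 members higher. Of 364 differences of the 26 named members with a value under the alternatives, 346 kept their direction, and 19 members kept it throughout. The gene nlp-3 turned to −0.043 with upper-quartile scaling and to −0.003 with limma-voom. Without both libraries nlp-47 turned to 0.039, nlp-8 to 0.033, nlp-9 to 0.005 and nlp-14 to 0.234; the cause was not tested. Leaving out single libraries gave −0.117 to 0.015 for nlp-40, −0.172 to 0.083 for nlp-47, −0.282 to 0.05 for nlp-8, −0.209 to 0.105 for nlp-14, −0.135 to 0.147 for nlp-3, −0.23 to 0.023 for nlp-9 and −0.001 to 0.258 for nlp-56. The labels do not say whether replicate numbers pair the samples. Same-numbered libraries had correlations of deviations of −0.74, 0.24 and −0.71. Between differently numbered libraries they ran from −0.49 to 0.77. The highest was that of mannose 1 with water 3, followed by 0.71 for mannose 3 with water 1. These values alone cannot settle whether same-numbered libraries share a culture or batch. With replicate numbers as a block 0 genes were called, the median stayed at −0.122 and 15 members were higher. With the block 2 members (4.0%) had a limma unadjusted p under 0.05, against 4 (8.0%) without it. Over all tested genes the shares were 1.46% with the block and 4.73% without it. Depth limits members near 1 FPKM, where 1 read in a gene of 1 kb is worth 0.0202 to 0.0263 FPKM.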
